A study of Mus musculus with 12 samples.

Results

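CD8+ dendritic cells from mouse spleen were compared after 2 h of culture in tissue culture medium at 37 °C with the same sorted subset taken straight from the animal. The members are the 4 arrays of the series, of 12 in all, whose titles name the CD8+ subset: 2 arrays of cultured cells and 2 arrays of fresh cells. Cells of all groups were sorted from spleen for a high level of CD11c. The other 8 arrays hold cultured and fresh CD4+ cells and cultured and fresh cells negative for CD4 and CD8 (double-negative, DN), with 2 arrays per group, and entered the statistical fit. The labels used here state neither strain, sex nor age of the mice, nor whether replicates came from separate animals. The p-values therefore cover the spread among these arrays only, part of which may be technical.

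CD8+ dendritic cells are the splenic subset best known for taking up dying cells and presenting their antigens on MHC class I to CD8 T cells. Dendritic cells mature when they meet microbial products, cytokines or mechanical disturbance: NF-kB enters the nucleus, peptide-loaded MHC and costimulatory ligands go to the surface, antigen uptake falls, and the chemokine receptor CCR7 directs the cells to T cell zones. Dendritic cells placed in culture after isolation are known to mature without an added stimulus. The arrays read the RNA of the first hours of such a culture.

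Each array measured 12422 probe sets as Average Difference intensities, which the authors scaled so that the trimmed mean was about 150 on every array. Values below 0 occur, and the level taken here as the detection floor was 91.37. Between 35.7% and 36.5% of probe sets lay above it on the cultured CD8+ arrays, against 36.7% to 38.0% on the fresh CD8+ arrays. The 3' signal divided by the 5' signal of the control probe sets is a common check of RNA quality. For Gapdh the ratio was 0.92 and 0.91 on cultured replicates 1 and 2, against 2.55 on fresh replicate 1 and 0.89 on fresh replicate 2. For actin it was 0.93 and 0.95 on the cultured arrays, against 0.91 and 0.94 on the fresh arrays. The replicates differed more than 2-fold at 10.8% of probe sets among cultured cells, against 24.7% among fresh cells. Over all subsets the highest intensity was 15503.2 to 28156.5 on cultured arrays, against 6050.9 to 12785.8 on fresh arrays. The root mean square of the values below 0 was 42.3 to 107.9 on cultured arrays, against 26.2 to 50.5 on fresh arrays. Any difference in array processing between the states cannot be told apart from the effect of culture. One label of fresh replicate 1 calls it CD4 positive while its title and source name call it CD8+.

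The sort markers went with the CD8+ label on all 4 arrays. Cd8a, the co-receptor chain used in the sort, read 890.9 and 679.4 in cultured cells, against 1210.4 and 1675.2 in fresh cells (log2 difference -0.87 ± 0.52 SE, adjusted p = 0.356). Itgax, which encodes CD11c, read 874.5 and 1308.7 in cultured cells, against 1449.9 and 2454.1 in fresh cells (adjusted p = 0.252). Cd4 lay near the floor throughout, at 59.7 and 105.6 in cultured cells, against 92.0 and 58.9 in fresh cells.

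Between cultured and fresh cells 417 of the 4735 genes tested differed, or 8.81%. Among them 192 genes rose (4.05% of those tested) and 225 fell (4.75%), by limma with an adjusted p under 0.05 over all probe sets. These shares are the background for every count of list members given below. At the level of probe sets, 247 of 6159 rose (4.01%) and 254 fell (4.12%), 8.13% in all. In every called gene the cultured and the fresh arrays did not overlap, a pattern that 21.6% of all genes showed upward and 32% downward. The median log2 difference was 2.1 among the genes that rose and -1.8 among those that fell, against -0.094 over all genes tested. Of the genes that rose, 45 lay below the floor on both fresh arrays, and 86 of those that fell lay below it on both cultured arrays. The share of all genes tested that lay below the floor in either state was not counted. A probe set could enter the test through 2 arrays of a single group, so such a pattern is partly set by the filter. The count depended on single arrays: without cultured replicate 1 it was 130 probe sets, without cultured replicate 2 it was 222 and without fresh replicate 1 it was 282. Arrays of other subsets, which only help to set the spread, moved it too, to 324 and 317 without fresh CD4+ replicate 1 or 2 and to 770 and 757 without cultured CD4+ replicate 1 or 2. A core of 60 genes rose and 30 fell under all 23 settings tried, and most genes described first below belong to it.

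The strongest rise among genes measured above the floor on all 4 arrays was that of Procr, the endothelial protein C receptor. Procr read 7415.0 and 7439.3 in cultured cells, against 371.6 and 423.6 in fresh cells, an 18.7-fold difference (log2 difference 4.22 ± 0.24 SE, adjusted p = 1.19e-05). The replicates within each state were nearly equal and the states lay far apart.

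Of 25 tested members of the list of costimulatory and maturation genes, 13 rose and 2 fell, with a median log2 difference of 1.73. The number that rose was 8 without cultured replicate 1, 11 without cultured replicate 2 and 10 without either fresh replicate. Of 10 tested chemokine receptors 1 rose (Ccr7) and 1 fell (Ccr2), beside 4.05% and 4.75% of all genes tested. Ccr7, the receptor that guides maturing dendritic cells to lymphoid T cell zones, read 5190.9 and 5073.5 in cultured cells, against 208.3 and 378.2 in fresh cells (log2 difference 4.18 ± 0.31 SE, adjusted p = 4.42e-05). Cd40, the receptor for CD40 ligand on helper T cells, read 4237.3 and 2154.2 in cultured cells, against 255.6 and 236.1 in fresh cells (3.61 ± 0.48, adjusted p = 0.00151). The lower cultured array of each gene exceeded the higher fresh array several times over. Cd83, a surface marker of mature dendritic cells, was already bright at isolation on its brighter probe set. That probe set read 6903.7 and 7459.2 in cultured cells, against 2656.4 and 1928.2 in fresh cells (1.66 ± 0.25, adjusted p = 0.00295). A dimmer probe set of Cd83 read 4454.9 and 6159.6 in cultured cells, against 215.7 and 1487.7 in fresh cells (3.20 ± 0.64, adjusted p = 0.0117). Gadd45b, a stress-induced regulator of MAP kinase signalling, read 6707.6 and 5227.5 in cultured cells, against 917.6 and 519.5 in fresh cells (adjusted p = 0.00104).

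Of 14 tested ligands and receptors of the TNF superfamilies 4 rose (Tnfsf9, Tnfsf4, Cd40 and Tnfrsf1b) and 1 fell (Ltb). The number that rose was 2 without cultured replicate 1 and 3 without either fresh replicate. Tnfsf9 read 1662.8 and 558.7 in cultured cells, against 30.2 and 55.9 in fresh cells, at least 9.97-fold higher (adjusted p = 0.0201). Tnfsf4, the OX40 ligand, read 205.4 and 171.2 in cultured cells, against 5.1 and 6.6 in fresh cells, at least 1.97-fold higher (adjusted p = 0.0047). Both were dark on the 2 fresh arrays and lit on the 2 cultured ones. Icam1, an adhesion ligand for T cell LFA-1, read 1890.7 and 1458.1 in cultured cells, against 497.3 and 750.1 in fresh cells (adjusted p = 0.0175). The calls of Tnfsf9, Tnfsf4 and Icam1 were lost without cultured replicate 1 (adjusted p = 0.192, 0.0595 and 0.165). Those of Tnfsf9 and Icam1 were also lost without fresh replicate 1 (0.104 and 0.0959), that of Tnfsf9 without fresh replicate 2 (0.0562) and that of Icam1 without cultured replicate 2 (0.0554).

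The classical B7 ligands of CD28 did not pass the test. Cd86 read 1023.6 and 1033.5 in cultured cells, against 454.9 and 362.4 in fresh cells (log2 difference 1.34 ± 0.39 SE, adjusted p = 0.0626). Without the 3 arrays of high Gapdh ratio its adjusted p was 0.00606. The brighter probe set of Cd80 read 272.8 and 264.2 in cultured cells, against 75.3 and 96.3 in fresh cells (adjusted p = 0.0696), while a dimmer probe set of Cd80 passed (log2 difference 2.78, adjusted p = 0.0352). On the 2 arrays of each state neither gene overlapped, a pattern that 21.6% of all genes showed upward.

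**Figure D1:**
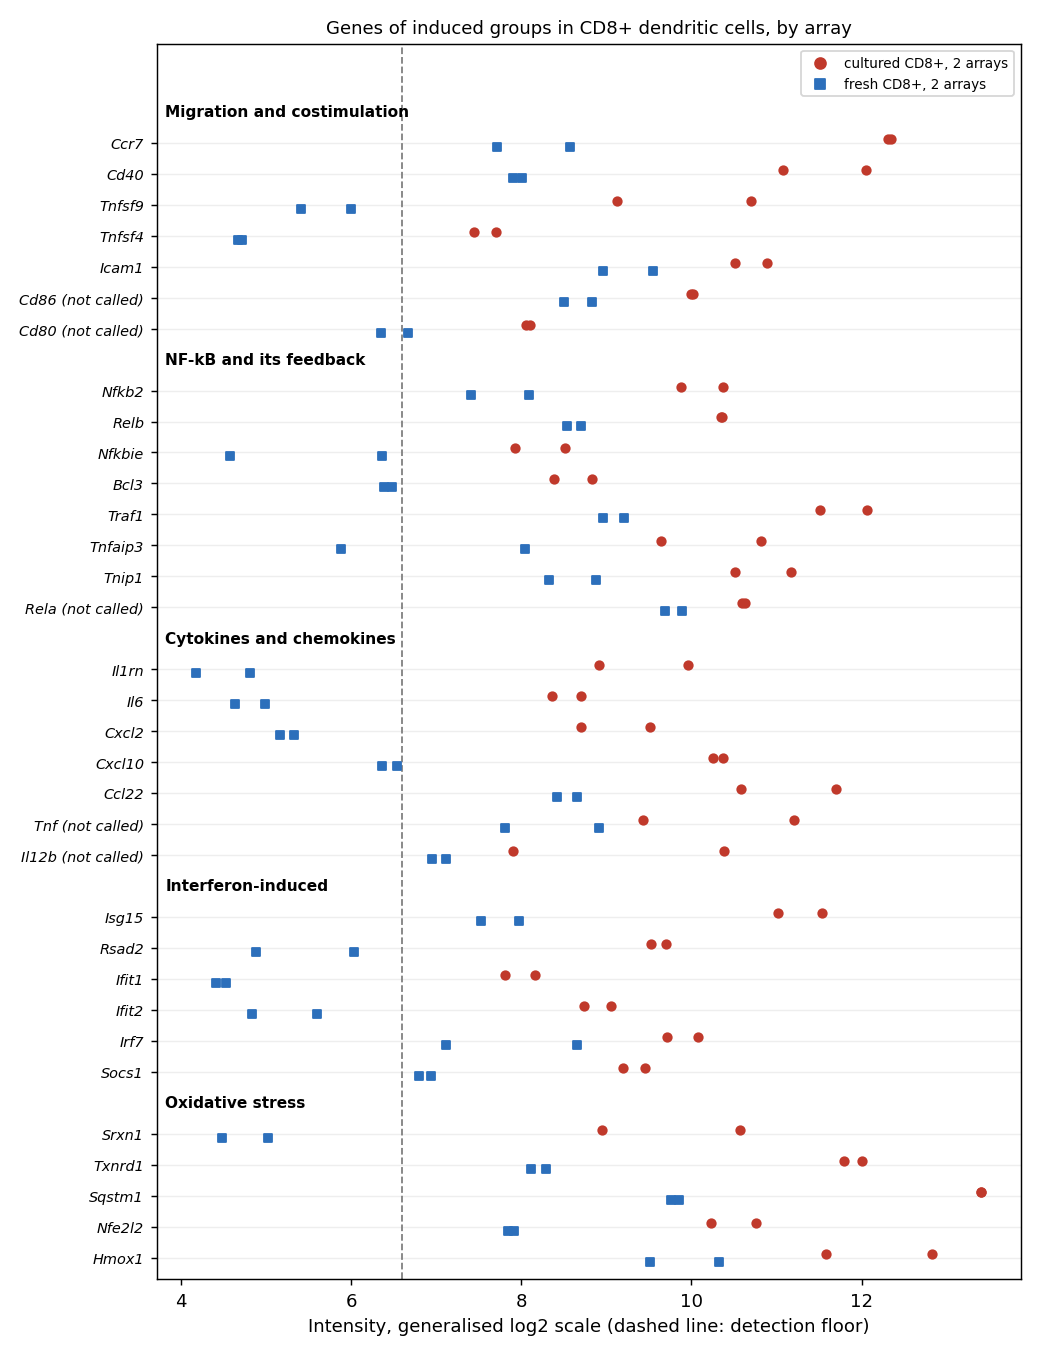
Intensity on the generalised log2 scale (x axis) of genes in 5 groups that rose after culture, with 1 row per gene; red circles are the 2 cultured CD8+ arrays, blue squares the 2 fresh CD8+ arrays, and the dashed line is the detection floor. In every row shown both circles lie to the right of both squares, widely for Ccr7 (5190.9 and 5073.5 cultured, 208.3 and 378.2 fresh), and genes that missed the adjusted threshold are marked as not called. Over all genes tested 21.6% did not overlap in this direction.

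NF-kB proteins are held in the cytoplasm by IkB proteins, and NF-kB induces several of its own subunits and inhibitors. Of 11 tested genes of NF-kB subunits, IkB proteins and IKK, 6 rose and 0 fell, with a median log2 difference of 1.73. Relb, a subunit of the alternative pathway, read 1315.8 and 1305.2 in cultured cells, against 370.0 and 416.6 in fresh cells (1.73 ± 0.23 SE, adjusted p = 0.00151). Nfkb2, which encodes the partner of RelB, read 1323.6 and 938.6 in cultured cells, against 166.2 and 271.5 in fresh cells (2.37 ± 0.40, adjusted p = 0.00522). Cultured and fresh arrays of both did not overlap, as in every called gene and in 21.6% of all genes upward. Bcl3, a nuclear IkB protein, read 455.0 and 332.1 in cultured cells, against 83.5 and 77.3 in fresh cells, at least 4.03-fold higher (adjusted p = 0.00265). The inhibitors Nfkbia, Nfkbib and Nfkbie rose as well. Nfkbia, the main inhibitor, read 9437.6 and 7231.9 in cultured cells, against 1680.5 and 2417.0 in fresh cells (2.04 ± 0.42, adjusted p = 0.0141), while another, dimmer probe set of Nfkbia did not pass (log2 difference 0.95, adjusted p = 0.355). A dimmer probe set of Relb had an adjusted p of 0.0521. Rela, the main activating subunit, read 1539.7 and 1579.4 in cultured cells, against 822.2 and 947.3 in fresh cells (adjusted p = 0.0545).

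Feedback regulators of TNF receptor, toll-like receptor and CD40 signalling showed the same direction, with 6 of 16 tested members higher and 0 lower. Traf1, an adaptor of TNF receptors, read 4270.2 and 2930.5 in cultured cells, against 592.2 and 498.2 in fresh cells (log2 difference 2.70 ± 0.26 SE, adjusted p = 0.000249). Tnfaip3, the deubiquitinase A20 that ends NF-kB signalling, read 1810.8 and 801.5 in cultured cells, against 49.9 and 262.9 in fresh cells (3.27 ± 0.68, adjusted p = 0.0145). Tnip1, a partner of A20, read 2313.0 and 1460.7 in cultured cells, against 319.3 and 467.8 in fresh cells (2.24 ± 0.35, adjusted p = 0.00357). The rest of those called were Tnfaip2, Tank and Pim1, the last of them at adjusted p = 0.0455. In the NF-kB list the number of genes that rose was 2 without cultured replicate 1, 4 without cultured replicate 2, 3 without fresh replicate 1 and 6 without fresh replicate 2; in the feedback list it was 1, 4, 3 and 5. Without cultured replicate 1, Nfkb2, Nfkbia, Tnfaip3 and Tnip1 had adjusted p of 0.0719, 0.134, 0.157 and 0.0545, and Nfkbia and Tnfaip3 were also lost without fresh replicate 1 (0.0852 and 0.0865). Nfkbia was lost without cultured replicate 2 as well (0.0555), and Pim1 was called in 9 of the 23 settings. Relb, Bcl3 and Traf1 were called in every setting.

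The promoter windows of these genes were searched for the known DNA motif of NF-kB. The kappaB motif was spelled GGGA and TTCC with any 2 bases between them and searched on both strands of the RefSeq windows that run 250 bases before to 50 bases after each start (build GRCm38.p6). It occurred in 2 of the 5 called NF-kB genes with a window and in 0 of the 6 called feedback genes. The share was 5.66% among genes that rose (9 of 159) and 4.35% among genes that fell (8 of 184), beside 2.19% of the genes tested and 1.47% of all windows. The stretches upstream of the start of the inhibitor gene Nfkbia (chr12:55492648-55492706, minus strand) and of 2 starts of Nfkb2 (chr19:46305445-46305498 and chr19:46305680-46305744, plus strand) are printed, with the motif in capitals. Both genes rose and hold the motif upstream of the start.
Nfkbia: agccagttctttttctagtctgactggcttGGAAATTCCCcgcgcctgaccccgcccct
Nfkb2, upstream start: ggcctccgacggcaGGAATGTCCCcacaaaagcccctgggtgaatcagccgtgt
Nfkb2, downstream start: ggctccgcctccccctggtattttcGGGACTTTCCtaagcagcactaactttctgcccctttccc

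Called cytokine genes moved in both directions, while the called chemokine ligand genes all rose. Of 12 tested inflammatory cytokines and their antagonists, 2 rose and 2 fell, and of 13 tested chemokine ligands 3 rose and 0 fell. Il1rn, the antagonist of the IL-1 receptor, read 997.7 and 481.4 in cultured cells, against -10.8 and 9.5 in fresh cells, at least 7.17-fold higher (adjusted p = 0.000535). Il6, an inflammatory cytokine, read 327.2 and 416.2 in cultured cells, against 15.4 and 3.9 in fresh cells, at least 3.83-fold higher (adjusted p = 0.0257). Neither was above the floor on a fresh array. The interleukins Il16 and Il18 went the other way. Il16 read 73.7 and 55.4 in cultured cells, against 273.3 and 441.6 in fresh cells, at least 3.61-fold lower (adjusted p = 0.00522). Il18, made as a precursor that caspase-1 activates, read -25.4 and 46.4 in cultured cells, against 202.9 and 174.9 in fresh cells, at least 1.98-fold lower (adjusted p = 0.0479). The call of Il6 was lost without any 1 of the 4 CD8+ arrays (adjusted p = 0.143 and 0.137 without cultured replicates 1 and 2, 0.0852 and 0.0948 without fresh replicates 1 and 2), and that of Il18 was lost in 12 settings, among them without cultured replicate 1 (0.346).

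Cxcl2, a neutrophil attractant, read 731.4 and 415.4 in cultured cells, against 21.1 and 27.3 in fresh cells, at least 5.71-fold higher (adjusted p = 0.00416). Ccl22, an attractant of CCR4-bearing T cells made by mature dendritic cells, read 3323.2 and 1534.9 in cultured cells, against 400.8 and 340.2 in fresh cells (log2 difference 2.61 ± 0.51 SE, adjusted p = 0.0108). Cxcl10, an interferon-induced attractant of activated T cells, read 1224.2 and 1329.5 in cultured cells, against 87.2 and 76.1 in fresh cells, at least 13.2-fold higher (adjusted p = 0.00856). All 3 were lost without cultured replicate 1 (adjusted p = 0.0694, 0.131 and 0.0717), Ccl22 also without fresh replicate 2 (0.051) and Cxcl10 without cultured replicate 2 (0.0602).

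Several cytokine and chemokine genes known for CD8+ dendritic cells did not pass the test. Il12b, the shared subunit of interleukins 12 and 23, read 1332.3 and 237.2 in cultured cells, against 119.9 and 134.5 in fresh cells (log2 difference 2.11 ± 1.59 SE, adjusted p = 0.48). Tnf read 2370.7 and 691.5 in cultured cells, against 222.0 and 480.3 in fresh cells (adjusted p = 0.18). On cultured replicate 1 both were several times brighter than on cultured replicate 2. Ccl5 read 6024.5 and 2804.9 in cultured cells, against 1412.6 and 690.3 in fresh cells (adjusted p = 0.0571, or 0.00126 when blocked by replicate number). Cxcl9, a marker of the CD8+ subset, read 2671.1 and 2695.6 in cultured cells, against 2299.8 and 1502.4 in fresh cells (adjusted p = 0.539).

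Interferon-induced genes, which encode antiviral effectors and are switched on by STAT and IRF proteins, rose in 13 of 29 tested members and fell in 0, with a median log2 difference of 1.64. Isg15, a ubiquitin-like modifier, read 2974.3 and 2081.4 in cultured cells, against 248.5 and 181.2 in fresh cells (log2 difference 3.53 ± 0.63 SE, adjusted p = 0.00673). Rsad2, the antiviral protein viperin, read 736.0 and 832.7 in cultured cells, against 57.4 and 11.8 in fresh cells, at least 8.10-fold higher (adjusted p = 0.00626). Ifit1, which binds viral RNA, read 283.7 and 220.9 in cultured cells, against -3.2 and 0.4 in fresh cells, at least 2.61-fold higher (adjusted p = 0.0081). Rsad2 and Ifit1 were thus below the floor in fresh cells and above it in cultured cells. Ifi204, a DNA sensor of the interferon-inducible family, read 1712.4 and 1727.5 in cultured cells, against 412.5 and 241.0 in fresh cells (2.44 ± 0.37, adjusted p = 0.00284). Ifitm1, an antiviral membrane protein, read 631.9 and 344.2 in cultured cells, against 81.2 and 48.9 in fresh cells, at least 4.83-fold higher (adjusted p = 0.000803). These last 2 were called in every setting, while the number of members that rose was 2 without cultured replicate 1, 5 without cultured replicate 2, 7 without fresh replicate 1 and 8 without fresh replicate 2. Isg15, Rsad2 and Ifit1 had adjusted p of 0.0785, 0.0556 and 0.0847 without cultured replicate 1, and Ifit1 one of 0.19 with a hard floor.

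Among IRF, JAK, STAT and SOCS genes, 7 of 24 tested members rose and 0 fell. Stat5a, a transducer of cytokine signals such as that of GM-CSF, read 3532.0 and 1132.2 in cultured cells, against 334.3 and 290.1 in fresh cells (log2 difference 2.68 ± 0.46 SE, adjusted p = 0.00561). Stat4, a transducer of IL-12 signals, read 229.8 and 262.2 in cultured cells, against 23.8 and 41.0 in fresh cells, at least 2.56-fold higher (adjusted p = 0.00334). Socs1, a feedback inhibitor of JAK kinases, read 586.2 and 702.3 in cultured cells, against 106.2 and 117.9 in fresh cells (2.46 ± 0.57, adjusted p = 0.0242). Cultured and fresh arrays of these 3 genes did not overlap, as in every called gene and in 21.6% of all genes upward. Irf7, the regulator of type I interferon genes, read 835.9 and 1078.4 in cultured cells, against 134.6 and 402.0 in fresh cells (adjusted p = 0.0491, called in 11 of the 23 settings), while its dimmer probe set had an adjusted p of 0.497. Irf8, on which the development of CD8+ dendritic cells depends, read 1907.6 and 1098.4 in cultured cells, against 8271.2 and 5016.8 in fresh cells, but did not pass (-2.15 ± 0.66, adjusted p = 0.0724, 0.0158 with only the 4 CD8+ arrays fitted, 0.00415 when blocked by replicate number). The other called members were Irf1, Stat3 and Stat5b. The number that rose was 2 without cultured replicate 1, 3 without cultured replicate 2 and 2 without fresh replicate 1, and Socs1 was lost without any 1 of the 4 CD8+ arrays (adjusted p from 0.0734 to 0.13).

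The interferon-stimulated response element was spelled as a repeat of GAAA with any 2 bases between the copies and searched in the same windows on both strands. It stood in 5 of the 10 called interferon-induced genes that had a window. Over all genes the share was 10.7% among those that rose (17 of 159) and 2.72% among those that fell (5 of 184), beside 3.91% of the genes tested and 3.44% of all windows. The 5 stretches are shown as the members in which the motif was present, with the matches in capitals and overlapping matches joined. They lie at chr4:156200845-156200926 (Isg15), chr12:26456533-26456602 (Rsad2), chr5:92349063-92349132 (Cxcl10) and chr16:10785574-10785649 (Socs1) on the minus strand, and at chr19:34640755-34640843 (Ifit1) on the plus strand.
Isg15: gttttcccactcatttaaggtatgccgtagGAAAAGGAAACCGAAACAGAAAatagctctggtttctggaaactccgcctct
Rsad2: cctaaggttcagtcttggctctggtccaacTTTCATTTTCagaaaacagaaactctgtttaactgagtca
Cxcl10: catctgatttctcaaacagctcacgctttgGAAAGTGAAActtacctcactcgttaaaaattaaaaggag
Socs1: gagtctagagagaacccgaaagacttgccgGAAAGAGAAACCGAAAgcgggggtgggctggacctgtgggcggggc
Ifit1: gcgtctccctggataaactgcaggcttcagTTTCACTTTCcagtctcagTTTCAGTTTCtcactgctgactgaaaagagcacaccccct

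Part of the list of genes of the oxidative stress response, which the factor NRF2 controls, also rose. Of 24 tested members 8 were higher, 0 lower and 16 not called, with a median log2 difference of 0.74. Nfe2l2, which encodes NRF2 itself, read 1205.2 and 1726.9 in cultured cells, against 238.6 and 227.0 in fresh cells (log2 difference 2.62 ± 0.35 SE, adjusted p = 0.00151). Txnrd1, thioredoxin reductase, read 3548.0 and 4124.7 in cultured cells, against 275.2 and 312.6 in fresh cells (3.70 ± 0.25, adjusted p = 2.18e-05). Sqstm1, the autophagy receptor p62, read 10860.7 and 10863.9 in cultured cells, against 867.1 and 927.3 in fresh cells (3.60 ± 0.23, adjusted p = 1.65e-05). For all 3 the spread within a state was small beside the gap between the states. Srxn1, sulfiredoxin, which repairs oxidised peroxiredoxins, read 494.4 and 1515.2 in cultured cells, against 16.6 and -0.9 in fresh cells, at least 8.96-fold higher (adjusted p = 0.00104). Bach1, a repressor of heme oxygenase, read 513.7 and 681.5 in cultured cells, against 161.2 and 65.0 in fresh cells (adjusted p = 0.00416). Hmox1, the heme oxygenase gene, read 3053.4 and 7278.6 in cultured cells, against 728.9 and 1283.1 in fresh cells (adjusted p = 0.0284). Hmox1 was lost without cultured replicate 2 (adjusted p = 0.203) or fresh replicate 1 (0.154), and the number of members that rose was 5 without cultured replicate 2, while Nfe2l2, Txnrd1, Sqstm1, Srxn1 and Bach1 were called in every setting.

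An antioxidant response element spelled TGACNNNGC was present in 4 of the 7 called members with a window. This short motif is frequent: it stood in 22.6% of genes that rose (36 of 159), in 16.8% of genes that fell (31 of 184), in 17.3% of genes tested and in 12.4% of all windows. The stretches before the starts of Txnrd1 (chr10:82859084-82859152, plus strand) and Nfe2l2 (chr2:75704865-75704913, minus strand) are printed. Both genes hold the motif upstream of the start and were called in every setting.
Txnrd1: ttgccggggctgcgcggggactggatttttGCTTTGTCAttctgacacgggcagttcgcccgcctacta
Nfe2l2: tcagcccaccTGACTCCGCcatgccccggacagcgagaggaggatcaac

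In the fit of all 12 arrays the other stress and housekeeping lists held no called gene. None of 24 cytosolic heat shock genes, 21 genes of ER chaperones and the unfolded protein response, 20 genes of glycolysis and hypoxia, 46 oxidative phosphorylation subunits, 33 proteasome subunits and 20 ribosomal protein genes passed in limma, and 0 of 14 sterol synthesis genes did. Their median log2 differences were -0.13, 0.38, -0.03, -0.33, 0.21, 0.37 and -0.29. Among heat shock genes the inducible Hspa1b, whose near-identical copy Hspa1a may share its probes, had the lowest adjusted p, 0.0906, at a log2 difference of -1.39. It passed with quantile normalization (0.0126), when blocked by replicate number (0.0293) and without either cultured CD4+ array (0.0351 and 0.0347). Without fresh replicate 1, 2 ribosomal protein genes were called higher. With the 3 arrays of high Gapdh ratio left out there were 4 such genes. Without those 3 arrays 2 genes of glycolysis and hypoxia, 2 of oxidative phosphorylation and 1 of sterol synthesis were called lower and 1 proteasome gene higher. Without fresh replicate 2, 1 gene each was called of the heat shock, glycolysis and hypoxia, oxidative phosphorylation and proteasome lists. Among regulators of cell growth, Odc1, the first enzyme of polyamine synthesis, rose to 1779.3 and 1845.1 in cultured cells, against 321.0 and 292.3 in fresh cells (log2 difference 2.56 ± 0.25 SE, adjusted p = 0.000249). Mxi1, a MYC antagonist, read 648.9 and 904.2 in cultured cells, against 227.0 and 188.9 in fresh cells (adjusted p = 0.00632, and 0.0659 without cultured replicate 2).

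**Figure D2:**
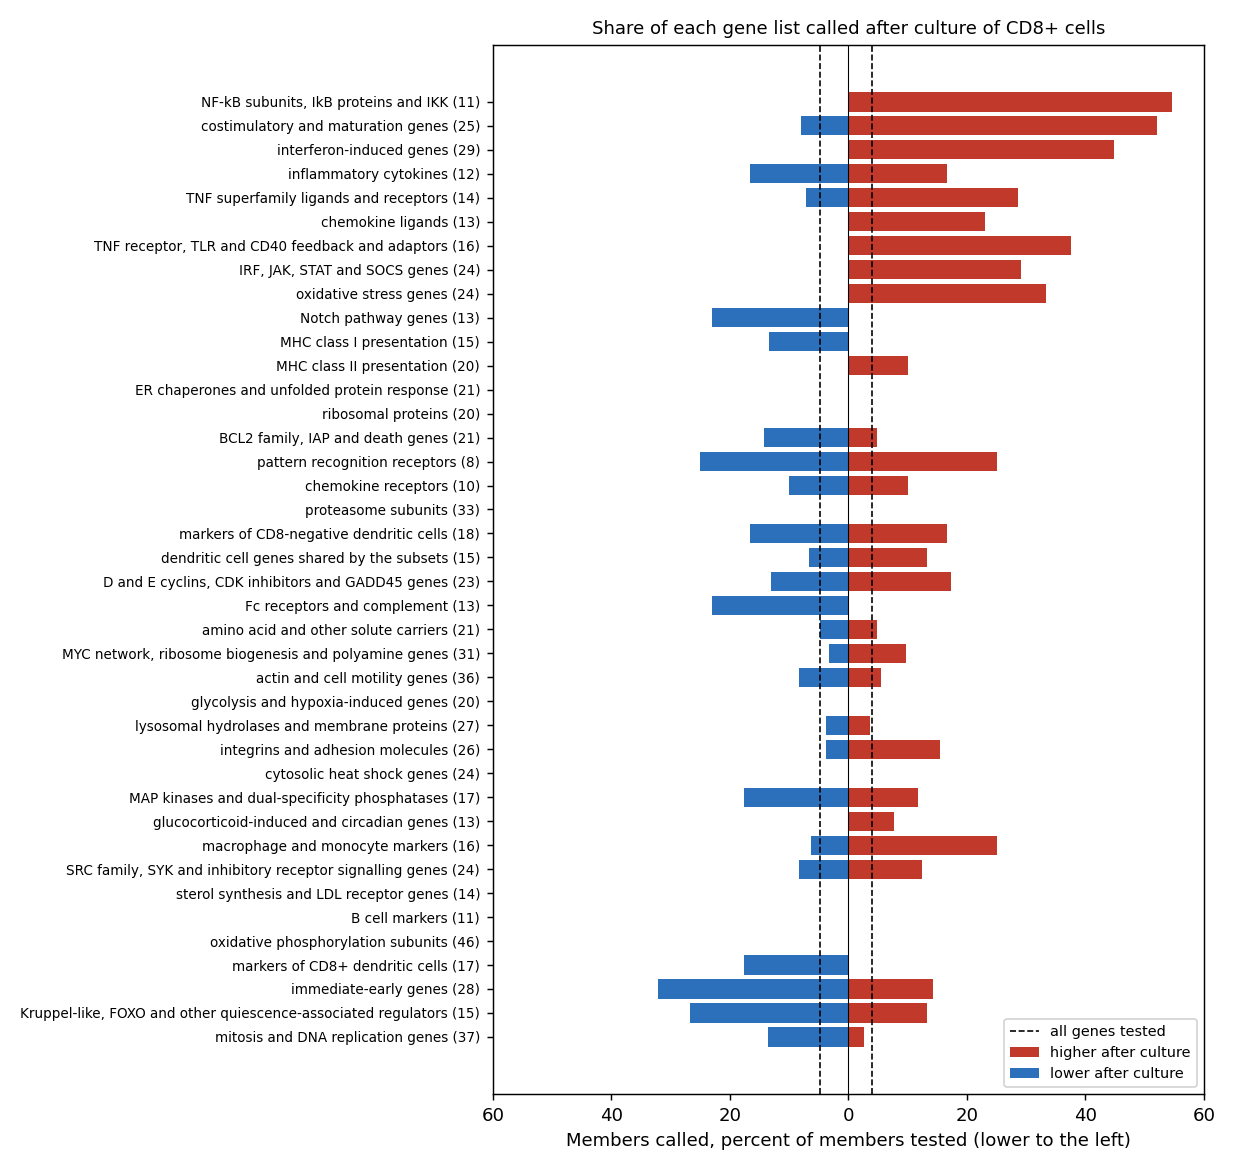
Percent of each gene list's tested members (number in brackets) that rose, to the right in red, or fell, to the left in blue, after culture of CD8+ cells; lists with at least 8 tested genes are ordered by their median log2 difference, and dashed lines give the share over all genes tested (4.05% higher, 4.75% lower). NF-kB genes (6 of 11), costimulatory and maturation genes (13 of 25) and interferon-induced genes (13 of 29) have the longest red bars, and immediate-early genes (9 of 28) the longest blue bar.

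Immediate-early genes are those whose RNA appears within minutes of a stimulus and decays fast. Of 28 tested members 9 fell and 4 rose, with a median log2 difference of -0.70. Fos, an AP-1 subunit, read 1925.4 and 1452.1 in cultured cells, against 5874.4 and 4142.2 in fresh cells (log2 difference -1.56 ± 0.27 SE, adjusted p = 0.00561). Fosb read 555.9 and 285.5 in cultured cells, against 1338.0 and 2113.8 in fresh cells (-2.07 ± 0.37, adjusted p = 0.00673). Jun, the partner of both, read 176.5 and 128.1 in cultured cells, against 465.2 and 1046.7 in fresh cells (-2.18 ± 0.46, adjusted p = 0.0166). These transcripts were still detected in cultured cells, at lower levels than at isolation. Egr1, an early zinc finger factor, read 661.5 and 173.2 in cultured cells, against 1996.9 and 1458.0 in fresh cells (adjusted p = 0.0386). Junb, the AP-1 subunit next to these in the family, read 1588.6 and 1132.9 in cultured cells, against 1226.4 and 1166.1 in fresh cells (adjusted p = 0.883). Ier3, an NF-kB-induced survival gene of the same list, went up and read 2619.0 and 2231.0 in cultured cells, against 296.7 and 608.7 in fresh cells (2.50 ± 0.38, adjusted p = 0.00287). Nr4a2, an orphan nuclear receptor, read 398.2 and 392.1 in cultured cells, against 77.4 and 107.6 in fresh cells (adjusted p = 0.00364). Without cultured replicate 1, 5 members fell and 2 rose, and without cultured replicate 2, 2 fell and 2 rose. Without fresh replicate 1, 7 fell and 3 rose, and without fresh replicate 2, 5 fell and 2 rose. Without cultured replicate 2, Fos, Fosb, Jun and Egr1 had adjusted p of 0.0601, 0.0656, 0.109 and 0.25, Jun was also lost without cultured replicate 1 (0.0773) and fresh replicate 2 (0.092), and Egr1 was called in 11 of the 23 settings.

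The largest fall of any named gene by its bound was that of Klf2, a Kruppel-like factor linked to quiescence and low inflammatory activity in several leukocytes. Klf2 read -63.9 and -55.2 in cultured cells, against 1840.8 and 1272.9 in fresh cells, at least 15.8-fold lower (adjusted p = 0.00139). It was bright at isolation and not detected on either cultured array. Klf4, a related factor, read 66.4 and 117.7 in cultured cells, against 908.0 and 662.0 in fresh cells (log2 difference -3.03 ± 0.34 SE, adjusted p = 0.000461). Klf6, a member of the same family known as an early response gene, read 2058.2 and 1120.0 in cultured cells, against 938.3 and 1775.5 in fresh cells (adjusted p = 0.8), and its arrays overlapped. Of 15 tested genes of the Kruppel-like, FOXO and quiescence list, 4 fell and 2 rose, beside 4.75% and 4.05% of all genes tested. These counts changed when single CD8+ arrays were left out. Among those that fell, Pdcd4 (adjusted p = 0.0469) was lost with a hard floor (0.0552). A dimmer probe set of Txnip did not fall (log2 difference 0.28, adjusted p = 0.785).

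Several regulators of transcription and RNA decay fell to near the floor. Mycl, the MYC family member known for its role in this subset, read 166.3 and 105.8 in cultured cells, against 1664.2 and 1257.7 in fresh cells (log2 difference -3.40 ± 0.40 SE, adjusted p = 0.000713). Zfp36l2, which promotes decay of AU-rich mRNAs, read 156.2 and 99.6 in cultured cells, against 1648.7 and 1098.1 in fresh cells (-3.38 ± 0.37, adjusted p = 0.000382). Lyl1, a basic helix-loop-helix factor, read 69.3 and 40.2 in cultured cells, against 661.5 and 323.5 in fresh cells, at least 4.80-fold lower (adjusted p = 0.00245). In each the cultured arrays were close to or below the floor of 91.37. Hes1, a target of Notch, read 96.2 and 125.4 in cultured cells, against 789.1 and 333.8 in fresh cells (-2.17 ± 0.49, adjusted p = 0.0223), and was lost without cultured replicate 1 or 2 (adjusted p = 0.167 and 0.0781) or fresh replicate 1 (0.137). In the Notch pathway list 3 of 13 tested genes fell (Hes1, Notch2 and Notch4) and 0 rose. All 3 calls were lost without either cultured replicate or without fresh replicate 1. A dimmer probe set of Notch2 read higher in cultured cells (log2 difference 1.87, adjusted p = 0.126).

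Of 13 tested Fc receptor and complement genes 3 fell and 0 rose, of 24 SRC, SYK and inhibitory signalling genes 2 fell and 3 rose, and of 17 MAP kinase and DUSP genes 3 fell and 2 rose. Over all genes tested 4.75% fell and 4.05% rose. Without cultured replicate 1 or 2, 1 Fc receptor or complement gene fell. Ifngr1, the ligand-binding chain of the interferon gamma receptor, read 174.1 and 145.5 in cultured cells, against 930.9 and 1994.8 in fresh cells (log2 difference -3.07 ± 0.41 SE, adjusted p = 0.00151). Fcgr2b, the inhibitory receptor for IgG, read 25.3 and 31.4 in cultured cells, against 354.7 and 366.3 in fresh cells, at least 3.74-fold lower (adjusted p = 0.00334). Ccr2, the receptor that draws monocytes and their kin out of the marrow, read 3.4 and -0.1 in cultured cells, against 365.0 and 103.7 in fresh cells, at least 2.06-fold lower (adjusted p = 0.015). Fcgr2b and Ccr2 were not detected after culture. The call of Ccr2 was lost without cultured replicate 1 or 2 (adjusted p = 0.0915 and 0.0772), without fresh replicate 1 (0.121) and with a hard floor (0.226). Ltb, lymphotoxin beta, read 178.1 and 164.2 in cultured cells, against 865.9 and 804.1 in fresh cells (-2.26 ± 0.29, adjusted p = 0.00127).

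Within G protein and kinase signalling, Rgs2, which turns off G protein signals, read 342.4 and 238.9 in cultured cells, against 1943.9 and 1265.6 in fresh cells (log2 difference -2.45 ± 0.32 SE, adjusted p = 0.00147). Prkacb, a catalytic subunit of protein kinase A, read 107.7 and 122.6 in cultured cells, against 706.2 and 632.1 in fresh cells (-2.49 ± 0.29, adjusted p = 0.000535). Grk6, a kinase of chemokine and other G protein-coupled receptors, read -119.3 and -20.7 in cultured cells, against 348.2 and 405.9 in fresh cells, at least 3.90-fold lower (adjusted p = 0.00237). The cultured values of Grk6 were below 0 on both arrays. Rhob, a small GTPase of endosomes and actin, read 134.6 and 95.4 in cultured cells, against 1258.9 and 1276.6 in fresh cells (-3.43 ± 0.28, adjusted p = 7.63e-05). Mapk14, the p38 alpha MAP kinase, fell while its upstream kinase Map2k3 rose. Mapk14 read 244.6 and 462.1 in cultured cells, against 1416.7 and 1560.3 in fresh cells (-2.14 ± 0.30, adjusted p = 0.00205). Map2k3 read 2252.6 and 2140.0 in cultured cells, against 351.2 and 488.3 in fresh cells (2.40 ± 0.26, adjusted p = 0.000382). Each of these genes was called in every setting. Their cultured and fresh arrays did not overlap, as in every called gene. Over all genes tested 32% showed this downward and 21.6% upward.

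**Figure D3:**
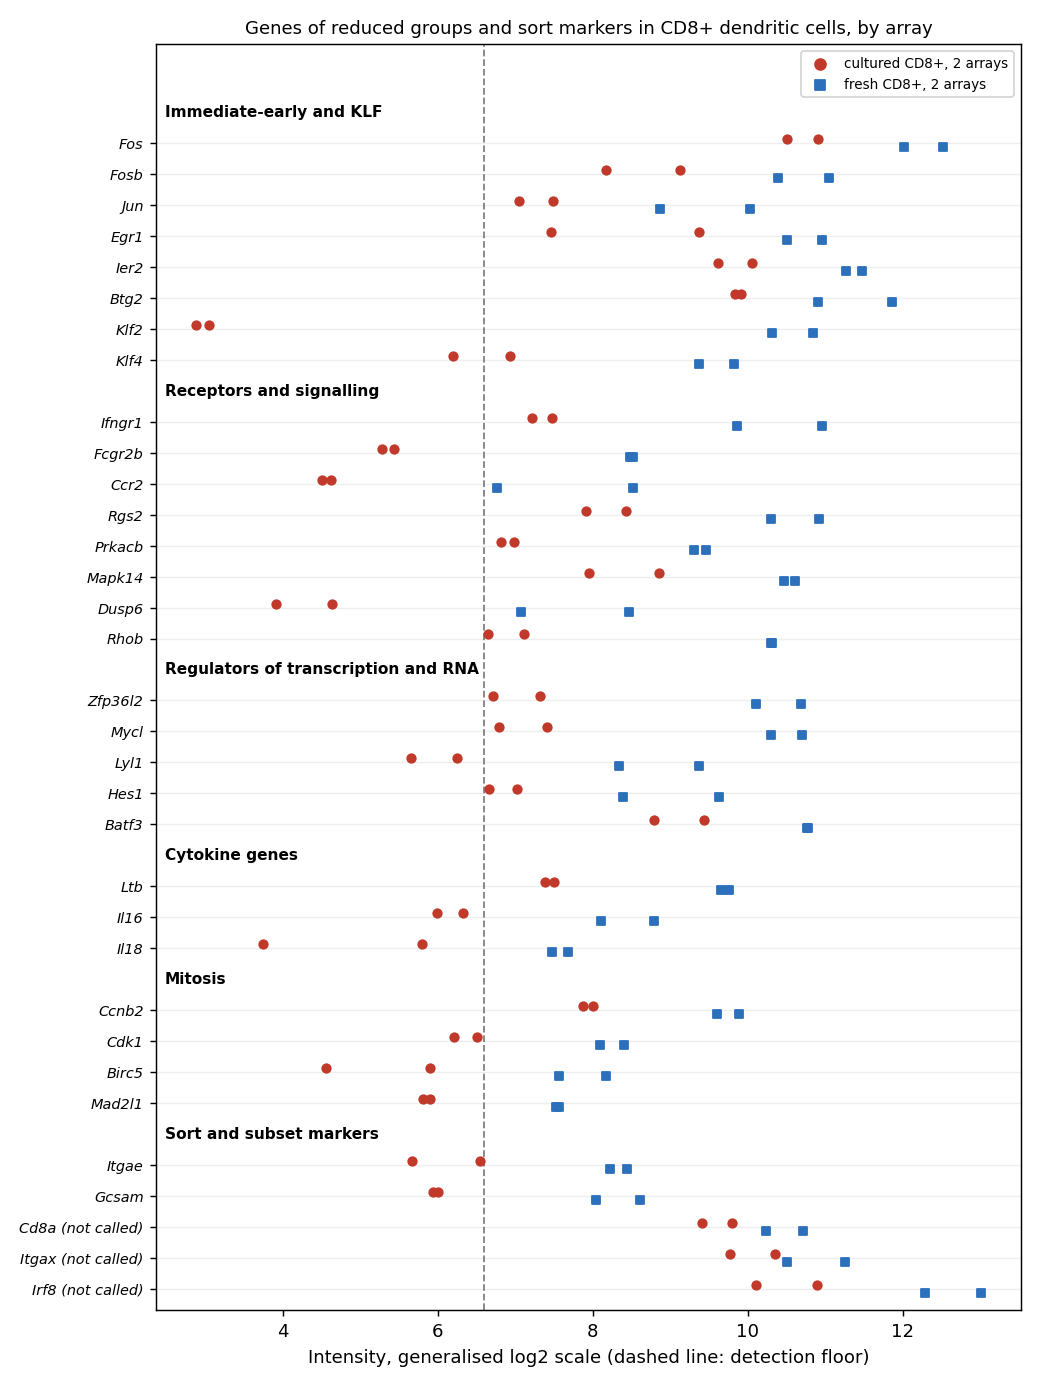
Intensity on the generalised log2 scale (x axis) of genes that fell after culture and of sort and subset markers, with 1 row per gene; red circles are the 2 cultured CD8+ arrays, blue squares the 2 fresh CD8+ arrays, and the dashed line is the detection floor. Both circles lie left of both squares in every row shown, and those of Klf2 (-63.9 and -55.2 cultured, 1840.8 and 1272.9 fresh) lie far below the floor. Over all genes tested 32% did not overlap in this direction.

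Of 17 tested markers that set CD8+ dendritic cells apart from other subsets, 3 fell and 0 rose (over all genes 4.75% fell and 4.05% rose). The median log2 difference of these markers was -0.60. Batf3, a factor needed for the development of the subset, read 692.2 and 443.4 in cultured cells, against 1744.2 and 1762.3 in fresh cells (-1.66 ± 0.35 SE, adjusted p = 0.0163). Itgae, which encodes the integrin CD103, read 40.7 and 87.7 in cultured cells, against 298.1 and 344.7 in fresh cells, at least 3.33-fold lower (adjusted p = 0.0371, and 0.182 for its dimmer probe set). Gcsam, a germinal centre gene also listed for this subset, was at least 3.31-fold lower (adjusted p = 0.0419). Batf3 stayed well above the floor, while Itgae and Gcsam were below it on both cultured arrays. All 3 calls were lost without cultured replicate 2 (adjusted p = 0.123, 0.079 and 0.159), without fresh replicate 1 (0.0666, 0.128 and 0.18) and without fresh replicate 2 (0.055, 0.149 and 0.083). Itgae and Gcsam were also lost without cultured replicate 1 (0.268 and 0.196), and under further settings that include an offset 0.5 times as large (0.113 and 0.0758). When the 3 arrays of high Gapdh ratio were left out, 5 markers fell and 2 rose, Xcr1 (0.00906) and Ly75 (0.0212) among those called. Other markers missed the threshold in different directions. Xcr1, the chemokine receptor of the subset, read 252.8 and 207.5 in cultured cells, against 373.2 and 872.0 in fresh cells (adjusted p = 0.0913), and Ly75, the endocytic receptor DEC-205, read 1859.0 and 1220.0 in cultured cells, against 476.0 and 473.8 in fresh cells (adjusted p = 0.0912).

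Antigen presentation genes were bright in both states. Of 20 tested genes of MHC class II presentation 2 rose and 0 fell, and of 15 of class I presentation 0 rose and 2 fell. Over all genes tested 4.05% rose and 4.75% fell. Those that rose encode lysosomal proteases: Ctsz, cathepsin Z, read 1552.1 and 1588.7 in cultured cells, against 356.8 and 683.3 in fresh cells (log2 difference 1.67 ± 0.29 SE, adjusted p = 0.00636), and Lgmn, legumain, read 443.1 and 609.0 in cultured cells, against 202.9 and 188.7 in fresh cells (adjusted p = 0.0123). Those that fell, H2-M3 and Cd1d1, encode MHC class I-like molecules that present formylated peptides and lipids. Cd1d1 read 453.5 and 286.5 in cultured cells, against 1276.8 and 921.2 in fresh cells (adjusted p = 0.0254). Ctsz was lost without cultured replicate 1 (adjusted p = 0.0595), Lgmn without cultured replicate 2 (0.103), Cd1d1 without cultured replicate 1 or 2 or fresh replicate 1 (0.0661, 0.171 and 0.13) and H2-M3 in 13 settings, among them without cultured replicate 1 (0.0891). Without fresh replicate 1, 5 class II presentation genes rose, and the median of that list was -0.19 in place of 0.40.

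Of 8 tested pattern recognition genes 2 rose and 2 fell, and without any 1 of the 4 CD8+ arrays 1 rose and 0 or 1 fell. Over all genes tested 4.05% rose and 4.75% fell. Cd14, a co-receptor for lipopolysaccharide, read 2225.7 and 2238.4 in cultured cells, against 260.6 and 137.7 in fresh cells (log2 difference 3.53 ± 0.57 SE, adjusted p = 0.00405). Ly86, the MD-1 partner of the RP105 receptor, read 498.1 and 409.8 in cultured cells, against 1058.7 and 1103.1 in fresh cells (-1.26 ± 0.25, adjusted p = 0.0115, and 0.0573 and 0.0903 without cultured replicate 1 or 2).

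Of 21 tested genes of the BCL2 family, IAP and death list, 1 rose (Bcl2l11) and 3 fell (Casp2, Birc5 and Pdcd4). Pdcd4 had an adjusted p of 0.0469 and was lost with a hard floor (0.0552). Of 23 genes of the cyclin, CDK inhibitor and GADD45 list 4 rose (Cdkn1a, Gadd45b, Mdm2 and Btg1) and 3 fell (Ccnd3, Rb1 and Btg2). Over all genes tested 4.05% rose and 4.75% fell. Bcl2l11, which encodes the pro-apoptotic protein Bim, read 5128.8 and 4075.2 in cultured cells, against 309.7 and 230.3 in fresh cells (log2 difference 4.09 ± 0.33 SE, adjusted p = 7.63e-05). A dimmer probe set of Bcl2l11 also rose and another had an adjusted p of 0.063. Cdkn1a, the CDK inhibitor p21, read 1546.3 and 2255.9 in cultured cells, against 156.7 and 122.9 in fresh cells (3.71 ± 0.38, adjusted p = 0.000289), and Serpinb9, an inhibitor of granzyme B, read 3542.1 and 3920.2 in cultured cells, against 588.6 and 334.5 in fresh cells (3.07 ± 0.43, adjusted p = 0.00189). All 3 genes were called in every setting. Mcl1, a survival member of the BCL2 family, read 1474.4 and 1401.4 in cultured cells, against 1326.8 and 766.2 in fresh cells (adjusted p = 0.394). Casp2, an initiator caspase, read 117.0 and 128.3 in cultured cells, against 394.0 and 481.1 in fresh cells (-1.79 ± 0.31, adjusted p = 0.00638, and 0.0661 without cultured replicate 1). Ccnd3, cyclin D3, read 139.4 and 127.1 in cultured cells, against 378.4 and 377.1 in fresh cells (-1.47 ± 0.33, adjusted p = 0.0224), and was lost without any 1 of the 4 CD8+ arrays (0.0659 to 0.12). Cultured and fresh arrays of both genes did not overlap, as in every called gene and in 32% of all genes downward. Without cultured replicate 1 neither list held a gene that fell, and without cultured replicate 2 the second held none. With the 3 arrays of high Gapdh ratio left out 5 genes of the first list rose.

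Of 37 tested genes of mitosis and DNA replication, 5 fell and 1 rose, with a median log2 difference of -1.04. Ccnb2, cyclin B2, read 255.2 and 231.9 in cultured cells, against 949.3 and 776.1 in fresh cells (log2 difference -1.81 ± 0.28 SE, adjusted p = 0.00303). Cdk1, its kinase, read 85.5 and 66.6 in cultured cells, against 270.7 and 338.0 in fresh cells, at least 3.14-fold lower (adjusted p = 0.00993). In these sorted bulk samples fewer cycling cells and less RNA per cell cannot be told apart. Ccnb2 was called in every setting, and Cdk1 was lost without cultured replicate 1 or 2 (adjusted p = 0.0585 and 0.0772) or fresh replicate 2 (0.0501). The number of list members that fell was 1 without cultured replicate 1, 3 without either fresh replicate, 15 without the 3 arrays of high Gapdh ratio.

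Further genes among the strongest rises have varied roles. Ehd1, a protein of endocytic recycling, read 1356.3 and 915.8 in cultured cells, against 27.1 and 54.0 in fresh cells, at least 11.5-fold higher (adjusted p = 7.63e-05). Ramp3, a partner of calcitonin-family receptors, read 634.8 and 1423.4 in cultured cells, against -85.7 and -3.4 in fresh cells, at least 9.83-fold higher (adjusted p = 0.00031). Scin, the actin-severing protein scinderin, read 745.6 and 719.2 in cultured cells, against 29.2 and 6.8 in fresh cells, at least 7.58-fold higher (adjusted p = 0.000118). All 3 were below the floor in fresh cells. Sema7a, a semaphorin, read 1096.0 and 852.8 in cultured cells, against 154.5 and 133.6 in fresh cells (log2 difference 2.72 ± 0.37 SE, adjusted p = 0.00154). Bhlhe40, a helix-loop-helix repressor of the circadian system, read 1167.4 and 1579.5 in cultured cells, against 226.1 and 350.4 in fresh cells (2.26 ± 0.31, adjusted p = 0.00154). Itgav, the integrin alpha V chain, read 1258.9 and 897.0 in cultured cells, against 337.3 and 227.2 in fresh cells (1.93 ± 0.29, adjusted p = 0.00284).

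Markers of other spleen cells were followed because a sort can carry such cells along. None of the tested T cell (5 genes), B cell (11), plasma cell (4), NK cell (4), neutrophil (4), red cell (5), platelet (2) and stromal (5) markers was called, and 10 of the 15 T cell markers on the array, the CD3 chains included, did not pass the filter on dim probe sets. Of 18 tested markers of CD8-negative dendritic cells 3 rose (Lilr4b, Ifitm1 and Relb) and 3 fell (Ccr2, Ltb and Notch2). A dimmer probe set of Notch2 went the other way, at 220.1 and 134.2 in cultured cells, against 15.8 and 64.5 in fresh cells (adjusted p = 0.126). Of 5 markers of plasmacytoid dendritic cells 1 rose (Irf7) and 0 fell. Of 16 macrophage and monocyte markers 4 rose (Cd14, Hmox1, Spic and Cd9) and C1qc fell. Without fresh replicate 1 or cultured replicate 2 the number that rose was 2. The other 11 were not called, with log2 differences in both directions, from -1.45 (Adgre1) to 1.03 (Fcgr1). The summed intensity of all 16 was 11577.5 and 15469.6 on the cultured arrays, against 6332.4 and 7376.1 on the fresh arrays. Cd14 and Hmox1 are themselves part of this sum. The defining marker Adgre1 was below the floor on all 4 arrays, at -5.7 and -31.3 in cultured cells, against 13.3 and 50.5 in fresh cells, and Mrc1, Marco and Cd5l did not pass the filter. Csf1r read 97.6 and 205.4 in cultured cells, against 455.1 and 305.8 in fresh cells (adjusted p = 0.0689). The part of these markers in the rise of Cd14 and Hmox1 was not tested.

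The response was set against that of CD4+ and DN cells, which were cultured in the same way. The subsets share no array, but each probe set had a single estimate of its spread over all 12 arrays. Calls in the subsets are therefore not independent of each other. Of the 192 genes that rose in CD8+ cells, 133 were also called higher in CD4+ cells (where 7.12% of genes were), 116 in DN cells (4.03%) and 105 in both. Of the 225 that fell, 147 were also called lower in CD4+ cells (11.8% of genes), 123 in DN cells (6.21%) and 112 in both. An opposite sign was seen in 7 and 6 of the genes that rose and in 4 and 2 of those that fell, for CD4+ and DN cells in turn. The share of opposite signs over all genes was not counted. Over all 6159 probe sets the log2 differences of CD8+ cells correlated with those of CD4+ cells at r = 0.67 and with those of DN cells at r = 0.728, as a description across probe sets that share arrays within each subset.

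**Figure D4:**
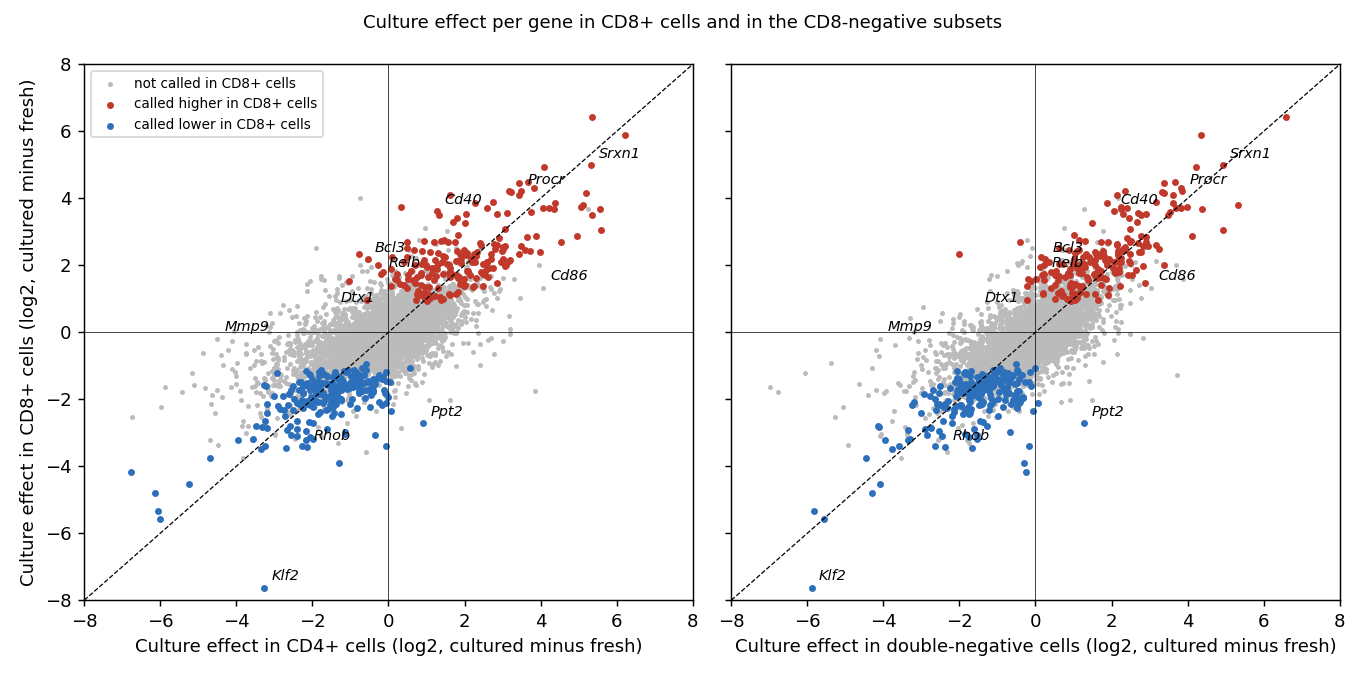
Log2 difference, cultured minus fresh, of each gene in CD8+ cells (y axis) against that in CD4+ cells (left, x axis) and in DN cells (right, x axis); red points rose and blue points fell in CD8+ cells, grey points were not called there, and the dashed line marks equal differences. Most red and blue points keep their sign in both other subsets, and the labelled genes Bcl3, Relb, Dtx1 and Ppt2 lie off the line.

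No probe set differed in its response between subsets after adjustment in limma. For CD8+ minus CD4+ the smallest adjusted p was 0.307, with 525 probe sets at an unadjusted p under 0.05, and for CD8+ minus DN it was 0.426, with 250. The count was also 0 under the other settings, except for at most 7 in 2 of them and for leaving out single arrays. Without cultured CD4+ replicate 2 it was 162 for CD8+ minus CD4+. The genes with the lowest p are described as values that did not pass. Bcl3 had the lowest p among genes with a larger rise in CD8+ cells (difference of log2 differences 2.72 ± 0.46 SE, unadjusted p = 9.6e-05): it read 455.0 and 332.1 in cultured and 83.5 and 77.3 in fresh CD8+ cells, beside 232.3 and 167.4 in cultured and 316.3 and 266.1 in fresh CD4+ cells. Relb showed a difference of 1.93 ± 0.33 and read 1575.7 and 1412.1 in cultured and 1796.9 and 1614.9 in fresh CD4+ cells. In fresh cells both genes read lower on the CD8+ arrays than on the CD4+ arrays, whereas the cultured CD8+ arrays of Relb, at 1315.8 and 1305.2, were close to the CD4+ values. Relb and Bcl3 also had positive differences against DN cells, 1.51 and 1.92, but the comparisons share the CD8+ arrays.

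Dtx1, a regulator of Notch signalling, read 154.5 and 177.5 in cultured and 108.3 and 90.0 in fresh CD8+ cells, beside 757.2 and 851.1 in cultured and 2267.0 and 2131.2 in fresh CD4+ cells (difference 2.15 ± 0.40 SE, adjusted p = 0.307). Cd86 was on the other side: it read 1223.0 and 2569.6 in cultured and 96.4 and 105.8 in fresh CD4+ cells, and its difference was -2.73 ± 0.56 (adjusted p = 0.307). In CD8+ cells it read 1023.6 and 1033.5 in cultured and 454.9 and 362.4 in fresh cells, so the fresh CD8+ arrays lay above the fresh CD4+ arrays. Sqle, a sterol synthesis enzyme, read 131.9 and 123.2 in cultured and 105.5 and 114.8 in fresh CD8+ cells, beside 394.0 and 402.5 in cultured and 66.3 and 84.5 in fresh CD4+ cells (difference -2.10 ± 0.43, adjusted p = 0.307). In the sterol list 0 of 14 genes were called in CD8+ cells, while 5 rose and 2 fell in CD4+ cells and 4 rose and 0 fell in DN cells; this contrast between the lists was not tested.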

How the data were processed

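RNA of sorted splenic dendritic cells was measured on 12 oligonucleotide arrays in 6 groups of 2. Per the labels, the authors deposited linear Average Difference intensity values after global scaling; the software is not given in the sources used here. Samples were grouped by their titles. Of 12488 probe sets 66 controls were left out, and of the other 12422 the platform annotation gave 1 symbol to 10833, several to 396 and none to 1193 (10817 found in RefSeq, 0 symbols changed).

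Because values below 0 have no logarithm, a generalised log2 was used: log2 of the mean of the intensity x and the square root of x² + c². The offset c was 45.69, the noise of a typical array as its negative values show it, and the detection floor of 91.37 is 2 times c. Differences on this scale understate changes of dim probe sets, and values below 0 can inflate them. Where neither array of a group detected a gene, "at least N-fold" is a bound: the bright group's mean against that of the dim group with values under the floor raised to it. Tests covered the 6159 probe sets detected on 2 or more arrays and used limma 3.58.1 in R 4.3.3 (1 mean per group over all 12 arrays, eBayes with trend and robust estimation, 6 residual degrees of freedom) and Benjamini-Hochberg adjustment; called means an adjusted p under 0.05. A gene was represented by its brightest probe set, and 666 genes had several tested. Errors of log2 differences are standard errors, and 2 arrays per group limit the precision. The script was tested on simulated data. Tables, motif searches and figures used Python 3.11.15, pandas 2.3.3, numpy 2.4.6 and matplotlib 3.10.9.

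Named were the 15 called genes of largest difference above the floor in each direction, the 10 of largest bound, up to 6 list members of lowest p, any member of the lists that carry the account, the sort markers and the 8 lowest p per direction for differences between subsets; Adgre1 was added as a defining marker after its values were seen. Lists can share members. Members and lists were chosen with earlier results of these data known. Alternatives changed the offset, floor, filter, normalization, block, arrays fitted, moderation, weights and probe set, and left out arrays.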

Additional observations from a re-analysis of the deposited data

How the results depend on the processing

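With 2 arrays per group, the number of called genes depended on single arrays more than on the processing. Against 501 called probe sets (247 higher, 254 lower), 10 alternatives that changed the offset, floor, filter, normalization, block, samples fitted, moderation or array weights gave 362 to 730. The replicate number as a block gave the 730 (349 higher, 381 lower). The titles number the arrays as experiments 1 and 2, with no word on whether a number marks a shared day or batch. With the block Irf8 (adjusted p = 0.00415), Ccl5 (0.00126) and Rela (0.0454) passed. The numbers were not taken to pair the samples, since nothing states it and groups share only 2 of them. The correlation of same-numbered deviations was nonetheless positive in all 15 pairs of groups, 0.106 to 0.444. It was 0.15 between cultured and fresh CD8+ cells. Which genes pass depends on leaving the block out, and whether a number marks a shared batch was not tested. Without the 3 arrays of high Gapdh ratio (fresh CD8+, cultured CD4+ and cultured DN replicates 1) 991 were called (461 higher, 530 lower); the cause was not tested. Leaving out 1 array gave 130 to 770, and where this left 1 array in a group, it was assumed to vary like the others. The differences between subsets, 0 called, gave 1 each with plain eBayes moderation, and 7 (CD8+ minus CD4+) and 1 (CD8+ minus DN) without the 3 arrays. Leaving out 1 array gave 0 to 162 and 0 to 3.

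Over the named genes and alternatives, 4214 values kept direction and call, 558 lost and 61 gained a call, and 3 turned direction, each in another probe set of the gene: Dusp6 (0.49, adjusted p = 0.756), Notch2 (1.87, 0.126) and Txnip (0.28, 0.785). The cause was not tested.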
